A study of Mus musculus with 4 samples.

Results

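Cytotoxic CD8 T cells were examined in mouse heart grafts. The members were selected on their own transcripts in the table of unique molecular identifiers (UMIs, counts of single captured RNA molecules). A member had over 200 detected genes, under 20% mitochondrial UMIs, at least 2 UMIs of Cd3d, Cd3e and Cd3g together, at least 1 UMI of Cd8a and Cd8b1 together and at least 1 UMI of Gzmb. It also had 0 UMIs of Cd4, Foxp3 and Cdh5 and fewer than 10 of Lyz2. By these criteria there were 499 members among 44626 cells that passed the gene and mitochondrial limits, of 53824 barcodes in all. The levels of these genes in the members were therefore fixed by the choice of cells and are given as a description.

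Hearts were placed in the abdomen of C57BL/6J recipients and collected on day 5. The 2 allogeneic grafts came from BALB/c donors (Balb/C in the labels) and the 2 syngeneic grafts from C57BL/6J donors, all male mice of 8 to 10 weeks per the study's methods, with no drug or transgene named. Whole dissociated grafts were run with the 10x Chromium 3′ kit, so the cells hold donor tissue as well as cells of the recipient. The barcodes fell into 4 libraries, numbered by barcode suffix, and neither the labels nor the files pair a library with a graft. Allogeneic and syngeneic grafts were therefore not compared, the cells formed 1 pooled sample with no replicates, and no test was run. Intervals in brackets are exact 95% intervals that cover counting error only.

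CD8 T cells recognise peptides on MHC class I molecules and, once activated, kill the cell that displays them. The killing runs through granules that hold perforin, which opens membranes, and granzymes, proteases that enter the target and start its death, while Fas ligand gives a separate death signal. Activated CD8 T cells also secrete interferon-gamma and chemokines, divide, and lose the receptors and factors of resting cells. In a transplanted heart they are known as effectors of acute rejection.

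The members were almost all in library 4. Library 1 held 2 members among 10322 kept cells (0.0194%, 0.00235 to 0.0700). Library 2 held 0 among 13154 (0%, 0 to 0.0280), and a floor of 3 counts gives a share of up to 0.0228%. Library 3 held 9 among 9850 (0.0914%, 0.0418 to 0.173), and library 4 held 488 among 11300 (4.32%, 3.95 to 4.71). The share was thus at least 1 order of magnitude higher in library 4 than in each other library, and every level below describes mainly that library. Library totals were 96020294, 115162601, 138892048 and 166079145 UMIs in libraries 1 to 4, with a median of 4807.5, 4759, 6319 and 9784 UMIs per barcode.

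Other lymphocytes and macrophages were also concentrated in library 4. It held 178 of 224 conventional CD4 T cells, 144 of 212 NK cells and 4167 of 5952 macrophages, but 333 of 12324 endothelial cells. Of the 142 CD8 T cells without Gzmb, 67 were in library 4. Cells that met the rule with or without a Gzmb UMI numbered 19, 38, 29 and 555 in libraries 1 to 4. A Gzmb UMI was present in 10.5% (1.30 to 33.1), 0% (0 to 9.25), 31.0% (15.3 to 50.8) and 87.9% (84.9 to 90.5) of them. These shares have different backgrounds. In endothelial cells, which should lack granzyme B, a Gzmb UMI was found in 43.2% of 333 cells of library 4 at a median depth of 9456 non-mitochondrial UMIs, and in 0.379%, 0% and 0.229% of the 3954, 4109 and 3928 endothelial cells of libraries 1 to 3 at medians of 5737.5, 6819 and 7827. The macrophages of library 4 had a Gzmb UMI in 51.5% of 4167 cells at a median depth of 14962. The 87.9% of library 4 exceeds both background shares, but the shares were not matched for depth. The members of library 4 had a median of 17754 non-mitochondrial UMIs. A single Gzmb UMI does not separate a CD8 T cell of that library from cells that should lack the transcript.

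The amount of Gzmb per member varied widely, and since the rule required Gzmb it is given as a description only. Members of library 4 had a median of 59 Gzmb UMIs, with the tenth percentile at 2, the ninetieth at 413.6 and a maximum of 1511. In that library 39 members had 1 Gzmb UMI, 94 had 2 to 9, and 355 had 10 or more, of which 181 had 100 or more. Relative to each cell's depth, 22 of the 488 were below 102 CPM (UMIs per 1000000 non-mitochondrial UMIs), 2 times the mean of 51.0 CPM in the endothelial cells, and 98 were below 10 times that mean. In library 3 the counts were lower, with 2 members at 1 UMI, 6 at 2 to 9 and 1 above that. Library 1 had 1 member at 1 UMI and 1 at 10 or more.

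**Figure D1:**
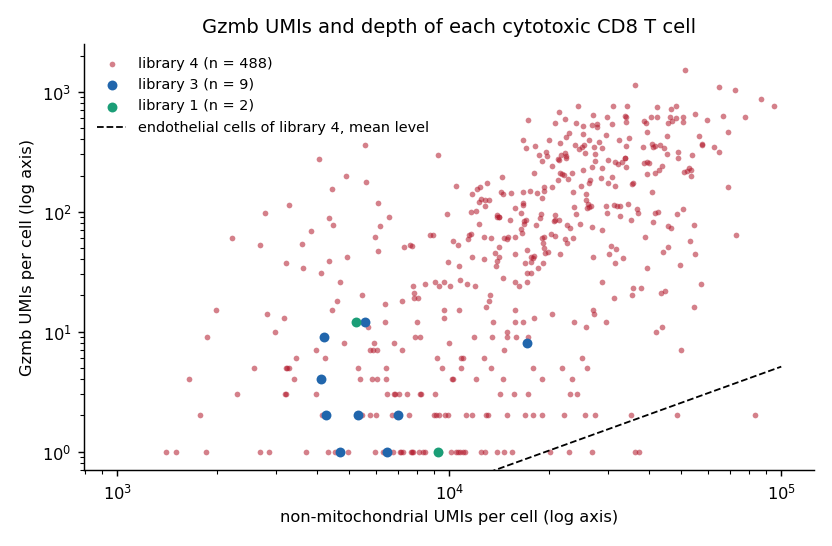
Gzmb UMIs (log axis) against non-mitochondrial UMIs (log axis) of each of the 499 members, coloured by library, with the mean Gzmb level of the endothelial cells of library 4 as a dashed line. Most members of library 4 lie well above the line, and a band of 42 members, 39 of them in library 4, sits at 1 UMI.

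At the Gzmb edge of the rule the cells on both sides looked alike. The 42 members with exactly 1 Gzmb UMI, over all libraries, had Prf1 at 41.9 CPM and Gzma at 60.5 CPM. The 142 cells with 0 Gzmb UMIs that met the rest of the rule had 37.4 and 51.1 CPM. Of the 42 and the 142, 39 and 67 were in library 4, so the sides hold different mixtures of libraries. The 5 members with exactly 2 Cd3 UMIs, too few cells to compare, had 8 Prf1 UMIs, all in 1 cell, and 1 of the 5 held 3840 of the 4031 UMIs of erythroid markers in the members of library 4. The 47 cells with 1 Cd3 UMI had Prf1 at 327 and Gzma at 2662 CPM. The 22 members with exactly 1 Cd8 UMI had Prf1 at 258 and Gzma at 1694 CPM, and the 180 cells with 0 had 219 and 2197 CPM. The 159 members with 5 to 9 Lyz2 UMIs and the 19 cells just beyond that limit, with 10 to 14, had Nkg7 at 2020.0 and 1573 CPM.

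Members had deep profiles, and their most abundant transcripts outside mitochondrial and ribosomal protein genes were Tmsb4x, Actb and Gzmb. Those of library 4 had a median of 17754 non-mitochondrial UMIs, from 1400 to 94791, and 3971.5 genes, against medians of 7434 UMIs in the CD8 T cells of library 4 without Gzmb, 9723.5 in conventional CD4 T cells and 9591.5 in NK cells. The marking of doublets picked 5 of the 499 members, 4 of them in library 4. Barcode sequences that occur in more than 1 library numbered 308, and 5 members, all in library 4, carried such a sequence. None of the 5 counterparts was a member or had a Gzmb UMI.

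Genes that the rule did not use placed the members among T cells. The constant regions of the T cell receptor, Trac and Trbc2, stood at 599 and 1717 CPM in the members of library 4, and Cd247, Lat and Lck, parts of the receptor's signalling machinery, at 132, 438 and 260.5 CPM. In the endothelial cells Trac stood at 8.04 and Trbc2 at 15.6 CPM. The list of NK cell markers summed to 0.0300% of the members' UMIs against 0.587% in the NK cells, which were selected on 2 of its genes, with Fcer1g its most abundant gene at 156 CPM, and the list for gamma-delta and innate-like T cells to 0.00322%, with Il17a at 0 and Tcrg-C2 its most abundant gene at 20.8 CPM. CD4 and regulatory T cell markers summed to 0.0155% against 0.118% in the CD4 T cells, which were selected on Cd4, with Cd4 and Foxp3 at 0 by the rule and Tnfrsf4 the most abundant. B cell markers summed to 0.00851% and dendritic cell markers to 0.0140%, the latter led by Ccr7, which T cells also express, with Cd209a at 0. Trac, Trbc2 and the signalling genes thus fit the T cell label. Members with 1 Gzmb UMI had Cd3d at 1113 CPM and Cd8a at 482 CPM, with the low Prf1 and Gzma given above.

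Markers of other cell types were present at low levels, and those of fibroblasts, smooth muscle and red cells came mostly from 1 or a few cells. Among the 488 members of library 4 the macrophage and monocyte list summed to 0.141% of UMIs, with Plac8 its most abundant gene at 561 CPM, against 2.18% in the macrophages. Of the 14982 UMIs of this list, 5117 were of Ly6c2 (482 CPM), which is also in the naive and memory T cell list. The UMIs of the macrophage and monocyte list were spread over the members, with 1.68% of them in the highest cell. Fibroblast markers gave 5508 UMIs (0.0519%), of which a single cell held 2934 and the next 2 held 658 and 641. Pericyte and smooth muscle markers gave 1011 UMIs, 873 of them in 1 cell, and erythroid markers 4031 UMIs, 3840 of them in 1 cell, where they made up 77.4% of its UMIs. Granulocyte markers gave 722 UMIs with 329 in 1 cell, cardiomyocyte markers 94 UMIs with Actc1 at 0, and endothelial markers 709 UMIs spread thinly, with at most 14 per cell. Leaving out cells with over 0.5% of their UMIs from any of the fibroblast, smooth muscle, erythroid, granulocyte, cardiomyocyte and endothelial lists removed 8 members of library 4 and 5 of the 67 CD8 T cells without Gzmb. The macrophage and monocyte list was not part of this limit, and 33 members and 8 CD8 T cells without Gzmb were over 0.5% for it. This choice was made after seeing the data, and counts without these cells are given for the lists whose counts against the CD8 T cells without Gzmb changed.

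Gzmb marks the rule, and its start region is shown with those of Ifng, Xcl1 and Ccl3, secreted products with highly concentrated UMIs among the members. In the GENCODE M21 annotation of GRCm38, Gzmb lies at chr14:56258838-56262260 on the minus strand, Ifng at chr10:118441046-118445892 on the plus strand, Xcl1 at chr1:164931644-164935527 and Ccl3 at chr11:83647844-83649355, both on the minus strand. The sequences are the 250 bases before the RefSeq start of each gene on GRCm38.p6, 5′ to 3′ on the gene's strand. Capitals mark matches, on either strand, to TGTGGT (the RUNX core), TGACTCA (an AP-1 site), TGACGTCA (a cyclic AMP response element) or GGTGTGA (a T-box core), none of which overlapped.
Gzmb upstream, chr14:56262335-56262584, minus strand: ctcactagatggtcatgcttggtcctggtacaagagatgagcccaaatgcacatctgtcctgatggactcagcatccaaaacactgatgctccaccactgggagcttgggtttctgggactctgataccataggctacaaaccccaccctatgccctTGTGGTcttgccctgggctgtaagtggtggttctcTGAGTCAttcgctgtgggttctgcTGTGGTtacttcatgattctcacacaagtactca
Ifng upstream, chr10:118440796-118441045, plus strand: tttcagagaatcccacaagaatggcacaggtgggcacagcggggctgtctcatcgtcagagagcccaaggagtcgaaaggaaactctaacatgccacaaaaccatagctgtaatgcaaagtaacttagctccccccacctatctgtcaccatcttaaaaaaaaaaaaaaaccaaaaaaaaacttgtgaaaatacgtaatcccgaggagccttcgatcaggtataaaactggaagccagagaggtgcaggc
Xcl1 upstream, chr1:164935523-164935772, minus strand: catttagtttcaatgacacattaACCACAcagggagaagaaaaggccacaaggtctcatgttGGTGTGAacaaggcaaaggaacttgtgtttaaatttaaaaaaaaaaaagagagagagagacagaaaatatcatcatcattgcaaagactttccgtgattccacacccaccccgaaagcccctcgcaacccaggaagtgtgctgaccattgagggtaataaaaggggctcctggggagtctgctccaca
Ccl3 upstream, chr11:83649379-83649628, minus strand: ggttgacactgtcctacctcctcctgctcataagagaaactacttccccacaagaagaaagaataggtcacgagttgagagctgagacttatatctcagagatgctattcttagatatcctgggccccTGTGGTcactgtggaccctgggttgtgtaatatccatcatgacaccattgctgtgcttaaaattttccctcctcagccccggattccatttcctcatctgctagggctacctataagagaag
Gzmb held the RUNX core at positions -93 and -34 and an AP-1 site at -58, counted from the start. Ccl3 held a RUNX core at -122, and Xcl1 a RUNX core at -227 and a T-box core at -188. None of the 4 letter strings was in the Ifng window. Of 27025 promoters of the same length, 14.2% held the RUNX core, 4.43% the AP-1 site, 1.62% the cyclic AMP response element and 3.31% the T-box core. These are matches of letters, not measured binding.

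The nearest comparison was with the 67 CD8 T cells of library 4 that met the rule but had 0 Gzmb UMIs. Members had higher levels of 6 of 16 granule genes, among them Prf1 and Gzma, and of 6 of 13 cytokine and chemokine genes, among them Ifng, Ccl3, Ccl4 and Xcl1, and lower levels of 13 of 14 genes of naive and memory T cells. Of 9016 genes with at least 50 UMIs in the 2 groups, 207 were at least 2-fold higher in the members (2.30%) and 351 at least 2-fold lower (3.89%), with 10 CPM added to both levels and the genes of the rule left out. With 1 CPM added the counts were 692 and 715, and with all libraries pooled 351 genes were higher. The median log2 ratio over all genes was 0.03. The number of lower genes was smaller under other choices of cells. It was 182 without the cells rich in tissue or blood markers, where 243 were higher. It was 84, with 206 higher, when both groups were chosen after each cell was thinned to 3000 UMIs. That choice held 433 members and 112 cells without Gzmb. Thinning also lowers depth and the number of genes compared, so the 84 and the 351 are not counts out of the same genes. The part of cells, depth and genes compared in this change was not tested.

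Among the granule and killing genes, 6 of 16 compared were at least 2-fold higher and 0 lower, with a median log2 ratio of 0.87 (0.79 with genes at 0 UMIs set to a floor of 3 counts). Without the cells rich in tissue markers 6 were higher with a median of 0.71. Prf1, which encodes perforin, stood at 816 CPM (799 to 834) in the members and 44.1 CPM (30.2 to 62.3) in the cells without Gzmb, a log2 ratio of 3.93. Gzma, which encodes granzyme A, stood at 1217 CPM (1196 to 1238) and 82.8 CPM (63.2 to 107). Serpinb9 and Serpinb6b, members of the family of serine protease inhibitors, stood at 360.1 against 141 CPM and 574 against 166 CPM. Gzmk stood at 65.6 against 17.9 CPM. Gzmc stood at 24.6 CPM against 0 UMIs, at least 5.94-fold higher by a floor of 3 counts over the group. The intervals of Prf1 and Gzma in the 2 groups lie far apart.

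Other parts of the killing machinery were present in both groups. Nkg7, a protein of cytotoxic granules, stood at 2202 CPM (2174 to 2230) and 1134 CPM (1058 to 1214), just under 2-fold. Srgn, the granule proteoglycan serglycin, stood at 1313 and 1115 CPM, and Ctsw, a cathepsin of cytotoxic cells, at 182 and 306 CPM. Fasl stood at 51.4 CPM (47.2 to 55.9) and 24.8 CPM (14.7 to 39.2). Gzme and Gzmg had 0 UMIs in the members.

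Of the cytokine and chemokine genes, 6 of 13 were higher and 1 was lower, with a median of 0.85. Ifng, interferon-gamma, stood at 1886 CPM (1860 to 1912) against 112 CPM (88.7 to 139). Ccl3 and Ccl4, chemokines that attract other leukocytes, stood at 1468 against 75.9 CPM and at 2867 against 388 CPM. Xcl1, a chemokine for cross-presenting dendritic cells, stood at 2908 CPM (2875 to 2940) against 593 CPM (538 to 652). Ccl1 had 25.5 CPM against 1 UMI, a ratio of 18.5 (3.29 to 733), with its 271 UMIs in 16 members and 116 of them in 1, and Il10 38.8 against 6.90 CPM. Csf1, a growth factor of macrophages that stromal cells also make, was the lower gene at 7.53 against 51.0 CPM, and 0 genes were lower without the cells rich in tissue markers. Ccl5, a chemokine of memory and effector T cells, differed in the other direction from Ccl3 and Ccl4 by less than 2-fold, at 1419 against 2022 CPM, and its log2 ratio of -0.51 became 0.09 in cells chosen after thinning. Tnf and Il2 were scarce in both groups, at 23.3 and 35.9 CPM and at 7.63 and 8.28 CPM.

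**Figure D2:**
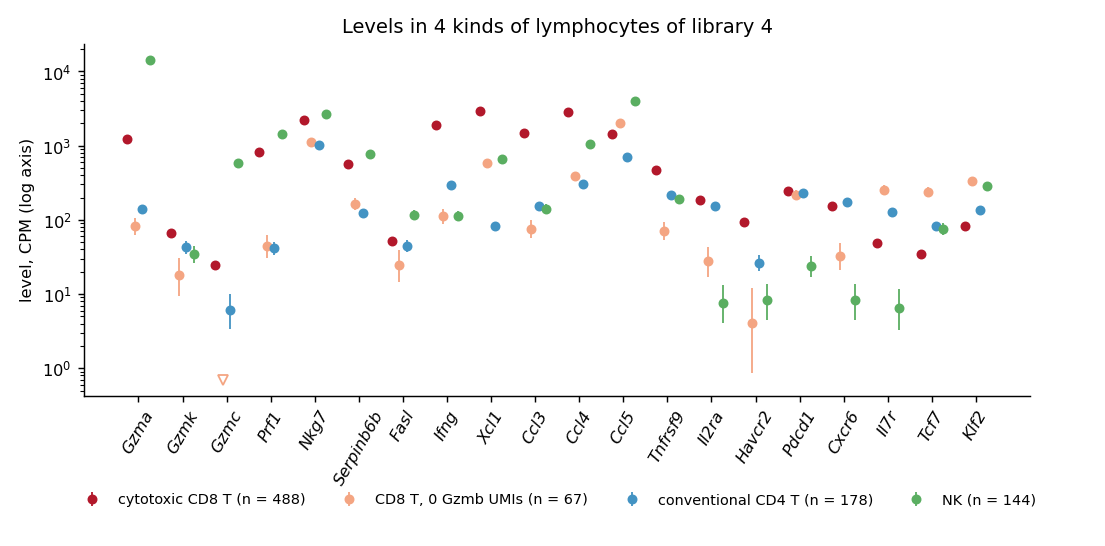
Levels in CPM (log axis) of 20 genes in 4 groups of library 4, the members, CD8 T cells with 0 Gzmb UMIs, conventional CD4 T cells and NK cells. Points are pooled levels, bars are exact 95% Poisson intervals for counting error, and the open triangle at the base marks 0 UMIs of Gzmc. Ifng, Ccl3 and Xcl1 are highest in the members, and Gzma and Gzmc in the NK cells.

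A few receptors of activated T cells were higher, and most receptors measured did not pass 2-fold. Among inhibitory receptors 2 of 8 were higher and 0 lower. Havcr2, which encodes Tim-3, stood at 92.8 CPM (87.1 to 98.8) in the members and had 3 UMIs in the cells without Gzmb, a ratio of 22.4 (7.65 to 109). Lgals3, which encodes galectin-3, stood at 297 against 139 CPM, and fell under 2-fold without the cells rich in tissue markers, when 1 inhibitory gene was higher. Pdcd1, which encodes PD-1, stood at 248 CPM (239 to 258) against 218 CPM (185 to 255). Its intervals overlap, and its log2 ratio of 0.18 was -0.26 in cells chosen after thinning. Lag3 and Cd160 stood at 227 against 146 CPM and at 205 against 106 CPM. Among costimulatory receptors 2 of 10 were higher and 0 lower, Tnfrsf9 (4-1BB) at 474 against 71.7 CPM and Tnfrsf4 (OX40) at 145 against 45.5 CPM. Il2ra, the alpha chain of the interleukin-2 receptor, stood at 185 CPM (177 to 193) against 27.6 CPM (16.8 to 42.6), the 1 higher gene of 17 cytokine receptors, with 2 lower and a median log2 ratio of -0.45. Without the cells rich in tissue markers 2 costimulatory receptors and 1 cytokine receptor were higher, and 1 cytokine receptor was lower. In cells chosen after thinning 1 of 10 costimulatory receptors was higher, and of 12 cytokine receptors 1 was higher and 1 lower.

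Genes of naive and memory T cells were lower as a list, 13 of 14 at least 2-fold, with a median log2 ratio of -1.44, and 11 of 14 with a median of -1.63 without the cells rich in tissue markers. Tcf7, the transcription factor TCF-1 of self-renewing T cells, stood at 35.2 CPM (31.7 to 39.0) against 236 CPM (202 to 274). Il7r, the receptor for the survival cytokine interleukin-7, stood at 48.95 against 252 CPM, and Klf2, which maintains homing receptors, at 82.0 against 329.7 CPM. Ccr7, which guides T cells into lymph nodes, stood at 126 against 364 CPM, a log2 ratio of -1.46 that was -0.89 with the mean over cells. Dapl1 stood at 21.2 against 235 CPM. Cd27 was the exception, at 241 and 236 CPM. The homing and adhesion list held 1 higher gene, Cxcr6, a receptor of tissue T cells, at 154 against 33.1 CPM, and 3 lower of 18, all of them in the naive and memory list as well. Without the cells rich in tissue markers 4 were lower.

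Among 26 transcription factors 3 were higher and 6 lower, or 3 and 5 without the cells rich in tissue markers. Id2 stood at 478 against 150.4 CPM and Irf8 at 332 against 156 CPM. Prdm1, which encodes Blimp-1, stood at 19.2 CPM against 2 UMIs, a ratio of 6.96 (1.90 to 57.9). Tbx21, which encodes T-bet, and Eomes stood at 49.99 against 29.0 CPM and at 28.6 against 16.6 CPM. Tox, a factor of chronically stimulated T cells, stood at 50.4 against 56.6 CPM. Of 16 genes of T cell receptor signalling, 0 passed 2-fold in either direction, and of 8 receptors of the NK type, likewise 0.

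Some genes of DNA synthesis and few of mitosis or glycolysis passed 2-fold. The S phase list had 10 of 19 higher and 0 lower with a median of 1.07, but 5 without the cells rich in tissue markers and 2 of 17 in cells chosen after thinning, where the median was 0.63. Dut, an enzyme of nucleotide synthesis, stood at 497 against 212 CPM, a log2 ratio of 1.19 that was 0.87 in cells chosen after thinning. The G2M list had 3 of 19 higher with a median of 0.62 (2 without the cells rich in tissue markers), among them Cdk1 at 131 against 48.3 CPM, while Mki67 stood at 326 against 246 CPM. All 16 glycolysis genes were above a log2 ratio of 0 with a median of 0.62, and 1 of them, Tpi1, passed 2-fold.

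Among interferon-response genes 0 of 23 were higher and 11 lower, with a median log2 ratio of -0.998. The list made up 0.346% (0.343 to 0.350) of the members' UMIs and 0.707% (0.687 to 0.726) of those of the cells without Gzmb. Ifi27l2a stood at 798 against 1934 CPM, Gbp4 at 78.7 against 486 CPM and Iigp1, an interferon-induced GTPase, at 43.6 against 309 CPM. The number lower was 7, with a median of -0.86, without the cells rich in tissue markers, and 1 of 19, with a median of -0.51, in cells chosen after thinning. Immediate early and heat shock genes, which tissue dissociation is known to induce, had 1 higher and 4 lower of 11, and 1 lower without the cells rich in tissue markers. In cells chosen after thinning 0 of 10 were lower, with a median of -0.30 against -0.65.

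The 15 largest ratios in each direction over all genes were named by rule. The higher genes were Ccl3 (4.11), Ifng (3.96), Prf1 (3.93), Gzma (3.73), Havcr2 (2.86), Ccl4 (2.85), Tnfrsf9 (2.57), Zbtb32 (2.51), Il2ra (2.37), Xcl1 (2.27) and Tmem163 on the log2 scale, the last at 35.6 CPM against 0 UMIs, at least 8.599-fold, and the 4 hemoglobin genes Hbb-bs, Hba-a1, Hba-a2 and Hbb-bt. The hemoglobin genes were under 2-fold without the cells rich in tissue and blood markers. In cells chosen after thinning the other 11 stayed past 2-fold, with Ifng at 2.98, Havcr2 at 2.10, Zbtb32 at 1.84 and Tmem163 at 1.27. Of the 15 lowest, Dcn, Rarres2, Ccl7, Vcam1, Serping1, Gsn, Timp1, C3, Ccl2, Bgn and Lcn2 were also under 2-fold without them, while Ly6c1, Tmem176b, Dapl1 and Cd63 were not. Tmem176b stood at -0.69 in cells chosen after thinning. With those cells left out, the lowest ratios were those of Dapl1 (-3.16), Tcf7 (-2.63), Ramp3 (-2.36), Il7r (-2.35), Fscn1 (-2.06) and Klf2 (-2.03), among others.

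**Figure D3:**
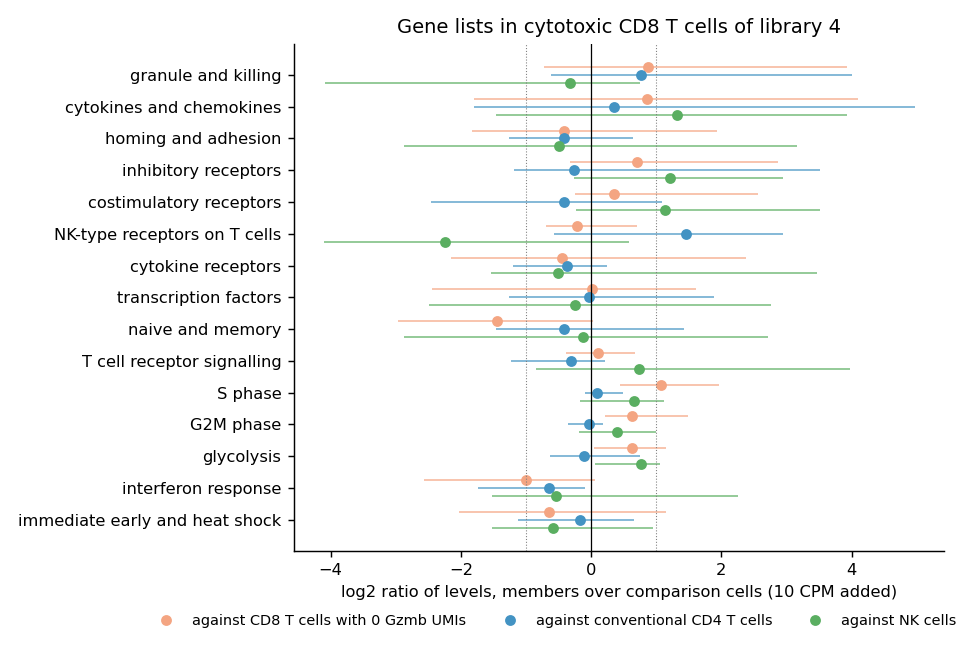
Median (point) and range (line) of the log2 ratio of levels for 15 gene lists, members of library 4 over CD8 T cells with 0 Gzmb UMIs, conventional CD4 T cells and NK cells of the same library, with 10 CPM added. Dotted lines mark 2-fold. The medians of the granule (0.87) and cytokine (0.85) lists lie right of 0 against the CD8 T cells without Gzmb, and those of the naive and memory (-1.44) and interferon-response (-0.998) lists left of 0.

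Against the 178 conventional CD4 T cells of library 4 fewer genes passed 2-fold than against the CD8 T cells without Gzmb. The 2 comparison groups hold 2494717 and 724928 non-mitochondrial UMIs, so these counts do not show which cells the members resemble more. Of 9224 genes, 83 were at least 2-fold higher (0.900%) and 130 lower (1.41%), and 293 and 338 with 1 CPM added. The higher genes included 4 erythroid, 2 smooth muscle and 3 fibroblast markers, whose UMIs lay mostly in 1 or a few members. Counts without those members are not given for this comparison. The granule list had 7 of 16 higher and 0 lower. Prf1 stood at 816 against 41.3 CPM and Gzma at 1217 against 142 CPM, and Gzmb, which the rule used on the members only, at 6612 against 1635 CPM. Ifng stood at 1886 against 292 CPM and Xcl1 at 2908 against 83.0 CPM, while Il10 (38.8 against 154 CPM) and Lta (12.4 against 67.7 CPM) were lower. Cd160 stood at 205 against 8.82 CPM and Klrc1, an inhibitory receptor of the NKG2 family, at 219 against 19.6 CPM, and 5 of 8 receptors of the NK type were higher. The CD4 T cells had more Tnfrsf4 (838 against 145 CPM), Icos (673 against 227 CPM) and Ctla4 (641 against 277 CPM). Among 10 costimulatory receptors 2 were higher in the members and 3 lower, and among 10 inhibitory receptors 2 were higher and 1 lower. Those higher in the members included Tnfrsf9 (474 against 219 CPM) and Havcr2 (92.8 against 26.5 CPM). Proliferation did not separate these groups, with 0 of 19 S phase and 0 of 19 G2M genes past 2-fold and medians of 0.09 and -0.03. The interferon-response list had 4 of 23 lower in the members and 0 higher.

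Against the 144 NK cells of library 4, defined by Ncr1 and Klrb1c without CD3, 350 of 9199 genes were at least 2-fold higher in the members (3.80%) and 376 lower (4.09%). With 1 CPM added the counts were 838 and 744. The higher genes again included 4 erythroid and 2 smooth muscle markers, and the lower ones 3 fibroblast markers. The granule list had 0 higher and 4 of 16 lower. Gzma stood at 1217 CPM in the members and 14118 CPM in the NK cells, Gzmc at 24.6 and 576 CPM, Prf1 at 816 and 1419 CPM, and Gzmb, which the rule required of the members only, at 6612 and 3499 CPM. The cytokine list ran the other way with 8 of 13 higher, led by Ifng at 1886 against 114 CPM and Ccl3 at 1468 against 142 CPM, with Ccl5 the lower gene at 1419 against 3945 CPM. Of 10 receptors of the NK type 8 were lower, with Klrc1 among the other 2 at 219 against 143 CPM. Pdcd1 stood at 248 against 23.6 CPM, and 6 of 9 inhibitory and 6 of 10 costimulatory receptors were higher.

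Most UMIs of Ifng, Ccl3, Xcl1 and Ccl4 were held by a small part of the members, which was not so for Ccl5. For each gene, the 49 of the 488 members of library 4 with the most UMIs of it were taken. They held 92.3% of all Ifng UMIs, 89.6% of Ccl3, 82.1% of Xcl1 and 78.4% of Ccl4, but 47.5% of Ccl5. Among granule genes the same share was 95.4% for Gzmc, 67.7% for Gzma, 63.3% for Gzmk, 48.8% for Prf1, 44.7% for Gzmb and 27.1% for Nkg7, beside 26.1% for all UMIs. The median member had 1 Ifng UMI, the ninetieth percentile was 43.4 and the maximum 1424. Ifng was at 0 in 191 members, Ccl3 in 225 and Prf1 in 100. Gzma was at 0 in 172 members, close to Xcl1 at 182, and Ccl4 was at 0 in 75 and Ccl5 in 37, so the genes with the most concentrated UMIs were not always those missing from the most cells. No member lacks Gzmb, since the rule requires it.

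**Figure D4:**
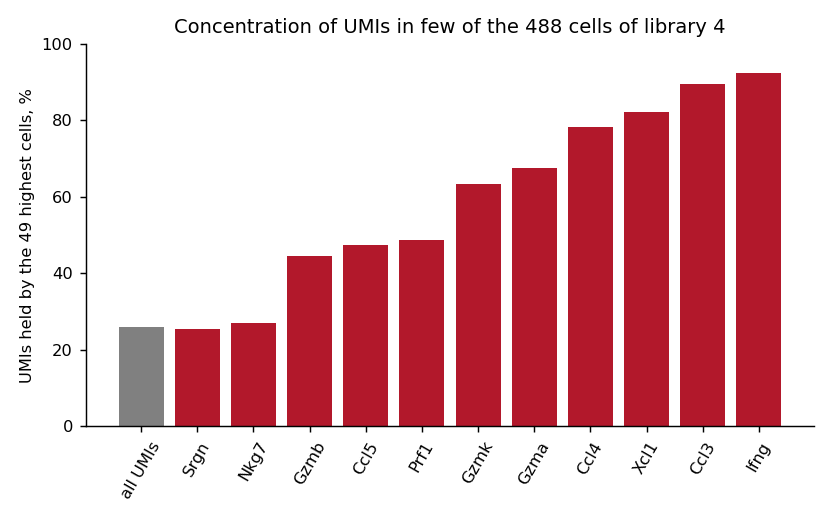
Share of a gene's UMIs (percent, bars from 0) held by the 49 of 488 members of library 4 with the most UMIs of that gene, with all non-mitochondrial UMIs in grey. Nkg7 at 27.1% is close to the grey bar at 26.1%, and Ifng reaches 92.3%.

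Ccl3, Ccl4 and Xcl1 were found more often in members with an Ifng UMI than in the others, though many members had 1 without the other. In the 472 members with at least 3000 UMIs, thinned to that depth, Ifng was found in 160 cells, 33.9%. In endothelial cells of library 4 thinned to the same depth, 309 cells, the background share was 4.21% for Ifng, 4.85% for Ccl3, 6.80% for Xcl1, 9.39% for Gzma, 21.7% for Ccl4 and 36.2% for Ccl5. It was 2.59% for Prf1 and 0.971% for each of Il2ra and Pdcd1. Of the members with Ifng, 55.6% (47.6 to 63.5) had a Ccl3 UMI, against 13.8% (10.2 to 18.1) of the 312 other cells. Ccl4 was found in 81.9% against 45.2%, Xcl1 in 58.8% (50.7 to 66.5) against 37.2% (31.8 to 42.8), Il2ra in 50.6% against 25.3% and Prf1 in 72.5% against 48.4%. Pdcd1 gave 42.5% against 42.0% and Ccl5 70.0% against 62.5%, with overlapping intervals. With Gzma in place of Ifng, Xcl1 was found in 36.1% of the cells with Gzma and 50.7% of those without, and Ccl3 in 29.7% and 26.7%. Cells of the same library share depth and background, and these shares have no replicate.

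Members graded by their own Gzmb count ran from profiles near the cells without Gzmb to profiles rich in granule genes. Prf1 stood at 41.9, 199 and 927 CPM in members with 1, 2 to 9 and 10 or more Gzmb UMIs, over all libraries. Gzma stood at 60.5, 173 and 1401 CPM and Ifng at 88.5, 639 and 2122 CPM. Tcf7 ran the other way at 282, 129.6 and 12.0 CPM, as did Il7r at 207, 147 and 28.7 CPM. The interferon-response list made up 0.590%, 0.543% and 0.310% of UMIs. Pdcd1 stood at 279, 244 and 247 CPM. The classes hold 42, 100 and 357 cells. They were cut by count and not by level, so cells of different depth fall in 1 class. The classes also differ in depth, with a median of 7935.5 UMIs in the 42 cells against 17266 in all 499 members. Library 3 gave 2, 6 and 1 cells to these classes in order. Because the count of a gene of the rule set the classes, they describe the members and test nothing.

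Clustering the members without the genes of the rule and without T cell receptor variable genes gave 8 clusters of 106, 96, 65, 61, 46, 43, 42 and 40 cells, numbered by size. All genes of these cells entered the clustering, so the levels describe the split and do not test it. Cluster 1 had the deepest cells, at a median of 36560 UMIs, and was led by Nrgn and Gzmc with genes of DNA synthesis such as Uhrf1 and Tk1. Its cytokine list was the lowest of the clusters at 0.319% of UMIs. Cluster 3 was led by genes of mitosis, such as Nusap1 and Cenpf, and by Tcrg-C2, a constant gene of the gamma receptor chain, at 75.5 CPM. It had Mki67 at 806 CPM, and its G2M list made up 0.573% of UMIs against 0.0238% in cluster 4.

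Clusters 4, 5 and 8 held the secreted products in different mixtures. Cluster 4 was led by Ifng (10944 CPM), Xcl1 (14407 CPM), Ccl3 (6927 CPM) and Ccl4 (12404 CPM), had Crtam, a receptor of activated T cells, at 625 CPM, and had a G2M list of 0.0238% of UMIs. Cluster 5 was led by Ccl1, which was found in 6 of its 46 cells, Xcl1 (8149 CPM) and Ccl3 (4072 CPM), with Ifng at 4332 CPM, and did show division genes, with an S phase list of 0.296% of UMIs. Cluster 8 was led by Nfkbid, Egr3, Irf4 and Nr4a3, genes induced by the T cell receptor, with Ccl4 at 10839 CPM and Ifng at 2489 CPM but Xcl1 at 510.5 CPM. Cluster 6, led by Ifitm1 and Gzmk, had Gzma at 4037 CPM and Ccl5 at 5227 CPM with Ifng at 54.3 CPM, and its interferon-response list was 0.682% of UMIs. Cluster 7 was led by the hemoglobin genes of 1 cell. Without that cell and the 8 others rich in tissue or blood markers there were 7 clusters, and 37 of the remaining 41 cells of cluster 7 joined 60 cells of cluster 4.

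Cluster 2 had the lowest median Gzmb count and the lowest median depth of the 8 clusters. It had a median of 2.5 Gzmb UMIs and 7999.5 UMIs in all, 10 of the 11 members from libraries 1 and 3, 4 of the 5 members marked as doublets and 8 of the 9 cells rich in tissue or blood markers. Its leading genes were collagens and other stromal genes, and 4350 of the 5508 fibroblast marker UMIs of the members of library 4 lay in 5 cells. Tcf7 stood at 182 CPM and Il7r at 214 CPM, against 5.28 to 45.2 CPM and 11.7 to 45.0 CPM in the other 7. Prf1 stood at 139 CPM and Ifng at 68.3 CPM. When the cells rich in tissue or blood markers were left out before clustering, 85 of its remaining 88 cells stayed together.

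**Figure D5:**
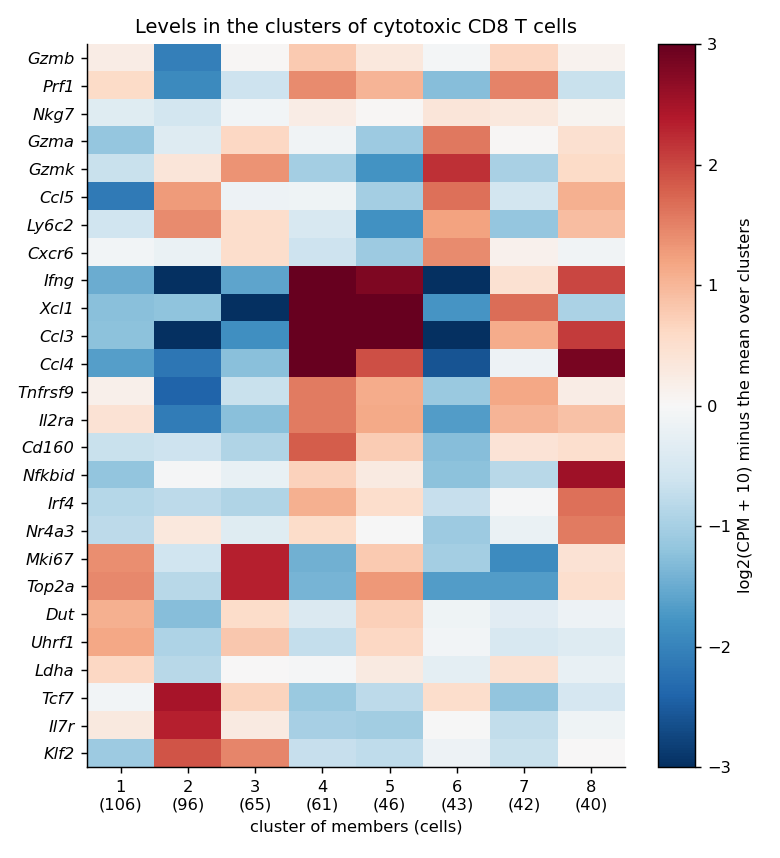
Levels of 26 genes in the 8 clusters of members (columns, cell numbers in brackets), as log2(CPM + 10) minus the mean over clusters, with colours limited to 3 units. Ifng, Xcl1 and Ccl3 are high in clusters 4 and 5, Ccl4 also in cluster 8, Mki67 in clusters 1 and 3, and Tcf7 and Il7r in cluster 2.

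The 11 members outside library 4 were few and differed from those within it, taken as a whole, in ways that their small number limits. Together they had 73237 non-mitochondrial UMIs at a median of 5301 per cell. Gzmb, which the rule required and whose background differs between libraries, stood at 737 CPM (554 to 962) against 6612 CPM in library 4. Prf1 had 2 UMIs, 27.3 CPM (3.31 to 98.6). Nkg7, at 2239 CPM (1910 to 2609), lay within counting error of the 2202 CPM of library 4. Ccl5 stood at 10446 CPM (9718 to 11213) against 1419 CPM, and a Ccl5 UMI was found in all 11 cells. The S phase list made up 0.0396% (0.0265 to 0.0569) and the G2M list 0.00546% (0.00149 to 0.0140) of their UMIs, against 0.264% and 0.241% in library 4, and Mki67 had 1 UMI. Of the 11 cells, 10 fell in cluster 2, beside 86 members of library 4, and the 11 were not set against those 86 alone. The heat shock gene Hspa1a stood at 806 against 36.1 CPM and fibroblast markers at 1.13% of UMIs against 0.0519%, with 1 of the 11 cells over the 0.5% limit, at 4.501% of its UMIs. The part of either in these differences was not tested. Whether they go with the graft, the library or its handling cannot be told apart here.

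CD8 T cells without Gzmb of the other libraries are given as values, except the 17 of library 1, below a minimum of 20. The G2M list made up 0.153% (0.144 to 0.162) of their UMIs in library 4 (67 cells), 0.00608% (0.00262 to 0.0120) in library 3 (20 cells) and 0.00141% (0.000291 to 0.00412) in library 2 (38 cells). The interferon-response list made up 0.707% (0.687 to 0.726), 0.202% (0.179 to 0.228) and 0.137% (0.122 to 0.154). In the endothelial cells of library 4 the lists made up 0.00455% and 1.49% of UMIs, and 5 of the 67 cells were rich in tissue markers. Each value is of 1 library, and the cells that the members were set against are those of library 4.

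Few receptor sequences were seen at the 3′ end of transcripts. A Trbv gene had a UMI in 14.96% of the 488 members of library 4, in 73 cells with 1 gene each, and 17 of the 35 Trbv genes in the table were seen. Trbv12-2 was found in 18 cells, Trbv13-1 and Trbv19 in 9 each. In conventional CD4 T cells 10 Trbv genes were seen in 11.2% of cells, led by Trbv12-2 in 8. Clones could not be followed at this coverage.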

How the data were processed

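The authors made the deposited counts of UMIs per gene and cell with Cell Ranger 3.0.0 on the mm10 genome and its Ensembl annotation, as 1 merged matrix of 30905 genes without normalization. Whole UMI counts were used as deposited. Reads of near-identical genes, such as the granzymes Gzmc to Gzmg, the Klra receptors and the hemoglobin genes, may be split or lost in counting.

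The members and gene lists were chosen with earlier results of these data known. Cells were kept by the limits in the rule. Comparison cells came from library 4, where most members were. CD8 T cells without Gzmb met the rule with 0 Gzmb UMIs. Conventional CD4 T cells had at least 2 Cd3 UMIs, at least 1 of Cd4 and 0 of Cd8a, Cd8b1, Foxp3 and Cdh5. NK cells had at least 2 UMIs of Ncr1 and Klrb1c and 0 of Cd3, Cd4, Cd8b1 and Cdh5. Both had Lyz2 below 10. Endothelial cells had at least 2 Cdh5 UMIs, at least 1 of Pecam1 and 0 of Ptprc and Cd3; macrophages had at least 10 of Lyz2, at least 2 of C1q and Csf1r genes, and 0 of Cd3 and Cdh5. A level is the pooled UMI count of a gene divided by that of all genes other than mitochondrial ones, with an exact Poisson interval, and shares have Clopper-Pearson intervals. UMIs are counted per molecule, so levels are not divided by gene length. A gene was called at 2-fold on the log2(CPM + 10) scale. Genes named in the text are those of the lists, the 10 highest in the members, the 15 highest and lowest ratios and the leading genes of clusters; Ramp3 and Fscn1 were chosen after their values were seen. Of 327 listed names 326 were found, and some of them are not reported here.

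Thinning drew UMIs at random without replacement. Doublets were marked per library by simulated pairs, 50 neighbours and the top 5% of cells; members so marked were kept, and on simulated data many added doublets went unmarked. Members were clustered on 2000 variable genes, 10 components and 15 neighbours with the Leiden method at resolution 0.5. Folds and intervals were tested on simulated data. Python 3.11.15, numpy 2.4.6, scipy 1.17.1 and leidenalg 0.10.2 were used.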

Additional observations from a re-analysis of the deposited data

How the results depend on the processing

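No paired analysis was possible because no library is paired with a graft and no test was run. Leaving out 1 library in turn gave 11 to 499 members, the lowest without library 4. With 1 CPM added in place of 10, 692 genes were higher and 715 lower against the CD8 T cells without Gzmb, 293 and 338 against the CD4 T cells, and 838 and 744 against the NK cells. With all libraries pooled, 351 genes were higher than in the CD8 T cells without Gzmb. In cells chosen after thinning to 3000 UMIs, where fewer genes were compared, 84 genes were lower. Without the cells rich in tissue or blood markers, an alternative added after seeing the data, 182 were lower. At resolution 0.3 the members formed 4 clusters. For these counts of members, called genes and clusters, the other alternatives stayed within 1.5 times the values reported. They gave, among others, 428 members with at least 3 Gzmb UMIs and 449 under 10% mitochondrial UMIs. Counts within single gene lists moved further in some cases. The S phase list, for example, had 10 higher genes as reported and 2 in cells chosen after thinning. Of 341 log2 ratios of 49 results for single genes of the lists under the alternatives, 3 changed sign, those of Ccl5 and Pdcd1. These leave out part of the genes named for the largest ratios, among which Hbb-bs (2.80 to -0.76), Hba-a1 (2.43 to -0.28), Hba-a2 (2.36 to -0.19), Rarres2 (-4.64 to 0.42), Serping1 (-3.76 to 0.09) and Lcn2 (-2.93 to 0.23) changed sign without the cells rich in tissue or blood markers. Of 285 medians of 45 lists 7 changed sign, in the transcription factor, T cell receptor signalling, G2M and NK-type receptor lists. For Pdcd1 the ratio was -0.14 with the mean over cells and -0.26 after thinning. Of the 49, Ly6c2, Ccr7 and Dut fell under 2-fold in at least 1 alternative. The causes were not tested. Depth limits every share of cells with a UMI, and counting error alone is covered by the intervals.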
